A study of Mus musculus with 288 samples.

Results

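The 8 genes described here are Id1, Id2, Id3 and Id4, the receptors Bmpr1a and Bmpr2, and the inhibitory SMADs Smad6 and Smad7. They were picked by name among 46078 mouse genes in a table of single-cell read counts, and all 8 were present in it. The cells came from the upper small intestine of 3 male GLU-Venus mice of 20 to 21 weeks, on a C57BL6 background, in which the fluorescent protein Venus is driven by the proglucagon promoter. No treatment was compared, and all groups carry the transgene. The cells were dissociated with collagenase, sorted singly and sequenced with the full-length Smart-seq2 method in 3 pools of 96 cells. Each cell is labelled with its pool but with neither its mouse nor its Venus status, so Venus-positive and Venus-negative cells could not be separated by label. By the study's methods, the deeply sequenced cells are Venus-positive cells of a single mouse, while the shallow ones include Venus-negative controls. P-values here weigh a difference between groups of cells against the spread of that difference between pools. A transgene promoter marks a cell that has made proglucagon and not a fixed cell type, so the cells were described by the transcripts they held.

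Of 288 cells, 250 had at least 20000 reads on mouse genes and at most 20% mitochondrial reads. The 75 and 87 cells kept in the shallow pools SLX-11175 and SLX-11179 had a median of 52571 and 70726 reads, against 1975706 reads in the 88 cells of the deep pool SLX-9703. One read at these median depths was worth 19.02, 14.1 and 0.506 CPM, the reads of a gene scaled to 1000000 reads on mouse genes. Throughout, values for the 3 pools stand in the order SLX-11175, SLX-11179 and SLX-9703. Cells were set in classes by 4 other genes: 58 cells held at least 10000 CPM of Gcg (proglucagon), 65 at least 100 CPM of Pzp (an alpha-2-macroglobulin family protease inhibitor), 28 at least 10000 CPM of Nts (neurotensin) and 29 at least 10000 CPM of Gip (glucose-dependent insulinotropic polypeptide). The classes shared 14 cells, of which 9 were in both the Pzp and the Nts class. A further 53 cells were in no class but held at least 1000 CPM summed over 7 hormone genes, and 31 cells held less. In these hormone-poor cells, general enteroendocrine markers summed to a mean of 23.9, 116 and 96.5 CPM, plasma cell genes to 178125, 154529 and 13.96 CPM and leukocyte genes to 95.5, 111 and 6186 CPM. A few cells carried these means in the shallow pools, where the medians were 8579 and 1207 CPM for plasma cell genes and 0 in both for leukocyte genes. In the classes, the mean per pool was at most 295 CPM for plasma cell genes and 14.1 CPM for leukocyte genes.

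Bone morphogenetic proteins (BMPs) are secreted ligands that bring together type I receptor kinases such as Bmpr1a and the type II receptor kinase Bmpr2. The receptors phosphorylate Smad1, Smad5 and Smad9, which join Smad4 and enter the nucleus. Id1, Id2 and Id3 are among the most immediate targets of these SMADs, and their proteins carry a helix-loop-helix but no DNA-binding basic region, so that they hold E proteins away from DNA. Smad6 and Smad7 are induced by the pathway and restrain it. In the intestine, BMP signalling is stronger on the villus than in the crypt, and it is known to alter which hormones enteroendocrine cells make.

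The promoters are shown because the members are read here as genes of one pathway. The 250 bases upstream of the RefSeq start (GRCm38.p6) were searched on both strands for GGCGCC, which reads the same on both strands and is known as a GC-rich SMAD element, and for GTCT, the core of the SMAD box. RefSeq promoters were matched for 6 of the 8 members, without Id1 and Smad7. GGCGCC stood 231 bases before the start of Id2, 148 before that of Id4, 198 before that of Bmpr1a and 105 before that of Bmpr2, and was not in the windows of Id3 and Smad6. GTCT stood 23 bases before the start of Id2, 166 and 68 before that of Id3 and 4 before that of Smad6. Of 32851 promoter windows of the same length, 9.59% held GGCGCC, 82.9% held GTCT and 7.06% held both, as that of Id2 did. A match is a description and not a site. The RefSeq starts used lie inside the gene bounds given below for Id2, Id3, Bmpr1a and Bmpr2, so their windows lie within those annotated genes and not before them, and those of Id3 and Bmpr2 are wholly in annotated exons. The stretches of 2 windows outside annotated exons are printed 5′ to 3′ on the gene's own strand, with GGCGCC in capitals, for Id2 (chr12:25096254-25096342, minus strand) and for Bmpr1a (chr14:34502688-34502796, minus strand).
Id2: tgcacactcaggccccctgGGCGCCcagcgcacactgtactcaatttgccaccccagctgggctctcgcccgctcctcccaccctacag
Bmpr1a: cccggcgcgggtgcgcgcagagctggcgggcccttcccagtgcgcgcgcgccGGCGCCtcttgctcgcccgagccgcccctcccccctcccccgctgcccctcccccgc

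On mm10, the members lie apart from each other. Id1 (ENSMUSG00000042745) is at chr2:152736251-152737410 on the plus strand, Id2 (ENSMUSG00000020644) at chr12:25093799-25097140 on the minus strand, Id3 (ENSMUSG00000007872) at chr4:136143497-136145755 on the plus strand and Id4 (ENSMUSG00000021379) at chr13:48261228-48266026 on the plus strand. Bmpr1a (ENSMUSG00000021796) is at chr14:34410734-34503341 on the minus strand, Bmpr2 (ENSMUSG00000067336) at chr1:59763400-59879014 on the plus strand, Smad6 (ENSMUSG00000036867) at chr9:63953076-64022059 on the minus strand and Smad7 (ENSMUSG00000025880) at chr18:75367529-75395935 on the plus strand. Smart-seq2 does not keep the strand, so reads from a stretch that Bmpr1a shares with Gm17110 on the opposite strand cannot be assigned by strand. Gm17110 was counted at 305 reads against 18779 for Bmpr1a. The same holds for Id4 and A330033J07Rik, at 107 reads against 5 for Id4. These overlaps are between gene bounds, and whether exons overlap was not examined. Bmpr2 overlaps Gm38125 on its own strand, where reads cannot be told apart by strand in any protocol, and Gm38125 was counted at 601 reads against 4725.

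The Id genes were the abundant members and Id4 had few reads. Per kilobase of exon, the mean level of Id2 was 97.5, 138 and 265 CPM per kb over all cells kept, that of Id3 was 99.2, 118 and 166 CPM per kb, and that of Id1 was 50.8, 53.4 and 159 CPM per kb. Id2 and Id3 changed places in this order between pools, while Id1 was lowest of the 3 in each pool. Bmpr1a, the type I receptor, followed at 8.04, 8.42 and 15.5 CPM per kb. Smad7, at 1.68, 1.85 and 4.21 CPM per kb, was above Smad6, at 0.76, 0.66 and 2.54 CPM per kb, and above Bmpr2, at 0.61, 0.59 and 1.51 CPM per kb, in every pool. These lengths sum all annotated exons of a gene, and a gene read mainly through a short transcript is then given too low a level.

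Detection of the members differed between the deep and the shallow pools. In the deep pool, Smad7 was read in all 88 cells, with a median of 8.41 CPM and a range of 1.73 to 179 CPM, and Id2 in 87 of 88 cells. In the shallow pools Smad7 was read in 20 of 75 and 30 of 87 cells, and Id2 in 48 and 64 cells. Id4 had 5 reads in all, in 1, 1 and 3 cells. In Gip cells it was read in 0 of 29 cells, a count that still permits a true share of 10.3% by counting error alone. Cells were therefore also thinned to 20000 reads each before shares of cells were compared. The pools still differed then, with all of Id1, Id2 and Id3 read in 24 of 75, 22 of 87 and 50 of 88 cells and none of them in 25, 25 and 6 cells.

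The question asked of the classes was whether cells that differ in their main hormone, or in Pzp, differ in these genes. Members passed the test in the Gip cells, where Id1 and Id2 fell, Id1 by a factor of 8.13 and Id2 by a factor of 4.43 against all other cells. The reads of each class were added up within a pool, and sums were compared in edgeR (quasi-likelihood test) with pool as the block and Benjamini-Hochberg adjustment over all genes tested. Levels in these sums are CPM after TMM scaling. Where the sums of 2 groups are said not to overlap, this is a description. The share of all genes tested whose sums do not overlap was not counted, in this or any other comparison. Lower calls took up 0.537% of the 12100 genes tested and higher calls 0.397%, while 2 of the 7 members tested were called lower and none higher. The members were chosen with earlier results of these data known, so these shares are no test of the members as a set. The median log2 fold change of the 7 members was -1.15, against -0.34 over all genes tested.

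Id1 stood at 9.65, 2.56 and 26.7 CPM in Gip cells and at 65.4, 63.7 and 139 CPM in all other cells. The Gip values rest on 5, 2 and 411 reads of the gene. Every Gip sum lay below every sum of other cells. The log2 fold change was -3.02 (SE 0.56, edgeR adjusted p = 0.0237, lower in 3 of 3 pools).

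Id2 stood at 61.8, 40.98 and 202 CPM in Gip cells and at 285, 333 and 496 CPM in the others. The deep pool was the highest in both groups, and again no Gip sum reached the lowest sum of other cells. The log2 fold change was -2.15 (SE 0.43, edgeR adjusted p = 0.0343).

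Id3 stood at 90.8, 104 and 85.2 CPM in Gip cells and at 197, 198 and 224 CPM in the others. These sums did not overlap either, but the log2 fold change of -1.15 (SE 0.37) did not pass the test (edgeR adjusted p = 0.217).

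The receptors and inhibitory SMADs did not pass the test in Gip cells. Bmpr1a stood at 34.8, 42.3 and 63.05 CPM against 50.3, 54.2 and 77.2 CPM, lower in each pool but with overlapping groups (log2 fold change -0.39, edgeR adjusted p = 0.879). Bmpr2 stood at 5.79, 1.28 and 28.6 CPM against 11.1, 9.96 and 18.7 CPM, and the deep pool went the other way from the shallow ones. Smad6 stood at 0, 3.84 and 0.651 CPM against 2.47, 2.12 and 6.65 CPM, and Smad7 at 7.72, 3.84 and 7.87 CPM against 7.40, 7.83 and 12.3 CPM. These inhibitors were covered by few reads, and their edgeR adjusted p were 0.828 and 0.945.

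**Figure D1:**
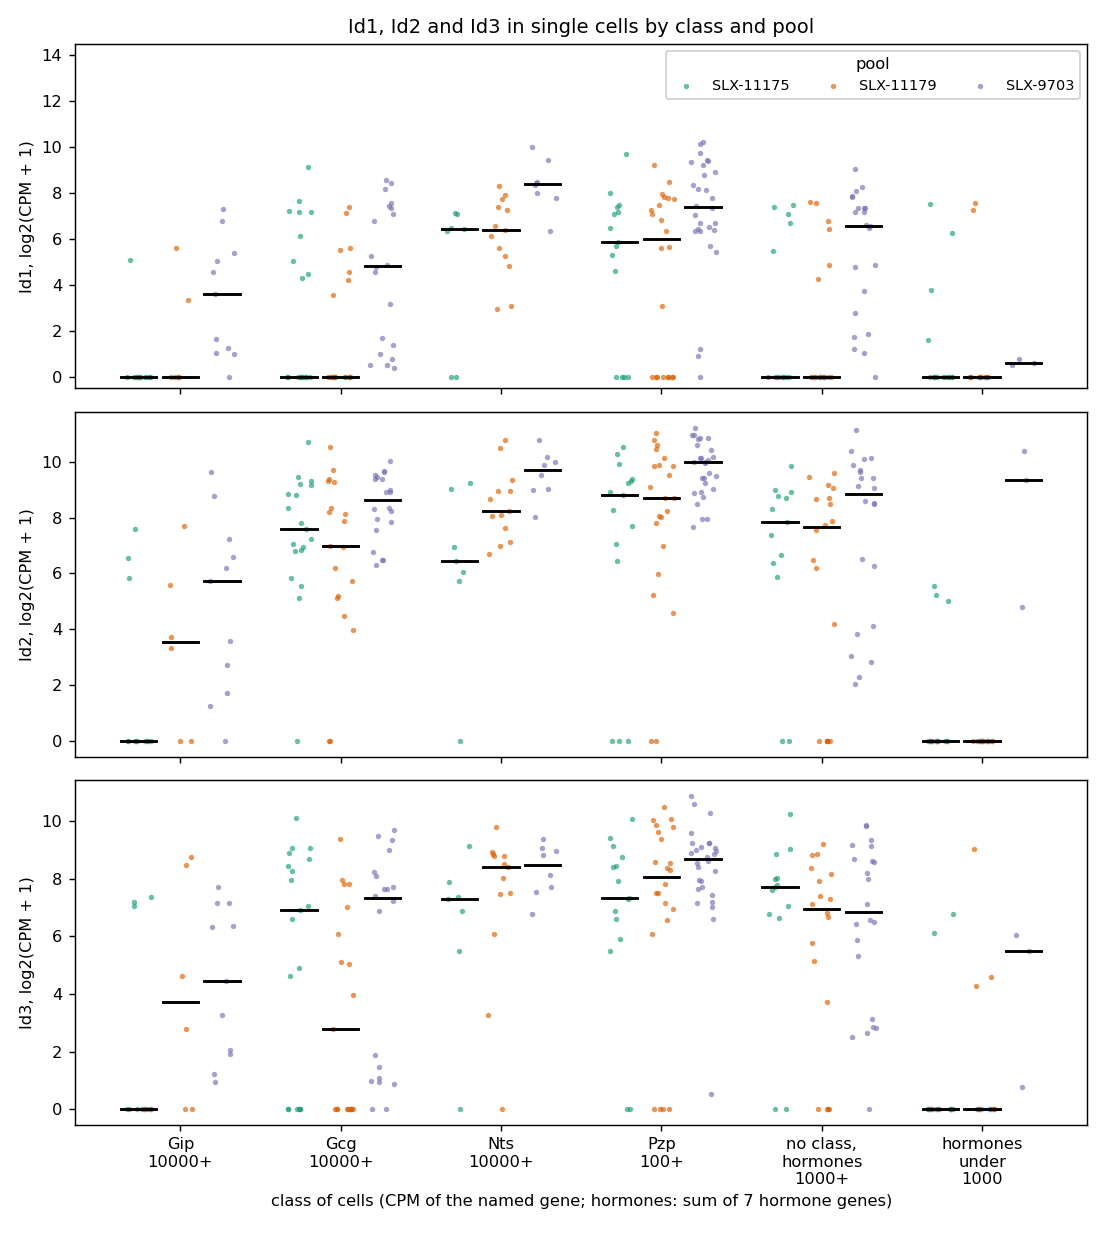
Level of Id1, Id2 and Id3 (log2 of CPM plus a pseudocount of 1) in each single cell, by class and pool, with black bars at the medians. Cells of 2 classes are drawn in both, and the Gip cells of the deep pool have medians of 11.04, 51.7 and 21.1 CPM against 167, 1005 and 414 CPM in its Pzp cells.

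Cell by cell, Id2 had its lowest class median in Gip cells in each pool, while the medians of Id1 and Id3 did not separate Gip from Gcg cells in every pool. The median Id2 level was 0, 10.7 and 51.7 CPM in Gip cells, 189.9, 125 and 406 CPM in Gcg cells, 86.1, 303 and 844 CPM in Nts cells and 450.5, 417 and 1005 CPM in Pzp cells. The highest Id2 level of any Gip cell was 189.9, 208 and 792 CPM, so the Gip maximum lay below the Pzp median in each pool. Id1, at medians of 0, 0 and 11.04 CPM in Gip cells, was also at 0 and 0 in the Gcg cells of the shallow pools and at 27.4 CPM in those of the deep pool. Id3 had medians of 0, 14.8 and 21.1 CPM in Gip cells and of 121, 5.92 and 159 CPM in Gcg cells, where SLX-11179 was below its Gip cells. After thinning to 20000 reads, Id2 was read in 9 of 29 Gip cells, 50 of 58 Gcg cells, 25 of 28 Nts cells and 58 of 65 Pzp cells. These counts are summed over pools that differed in detection. By pool, all of Id1, Id2 and Id3 were then read in 1 of 12, 0 of 6 and 2 of 11 Gip cells and in 6 of 19, 2 of 19 and 7 of 20 Gcg cells. In Nts cells they were read in 5 of 7, 7 of 13 and 8 of 8 cells, and in Pzp cells in 10 of 15, 13 of 22 and 24 of 28. None of them was read in 8, 3 and 4 Gip cells, 2, 5 and 0 Gcg cells, 1, 0 and 0 Nts cells and 2, 4 and 0 Pzp cells. Without thinning, and summed over pools, all 3 were read in 11 Gip, 33 Gcg, 25 Nts and 52 Pzp cells.

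The choice of the other cells mattered for the call in Gip cells. Against Pzp cells alone, the log2 fold change was -3.46 for Id1 (edgeR adjusted p = 0.00423), -2.57 for Id2 (0.00789) and -1.60 for Id3 (0.0516). Against Gcg cells alone, it was -2.48 for Id1, -1.95 for Id2 and -0.63 for Id3, and none passed the test (edgeR adjusted p = 0.216, 0.180 and 0.831). The calls of Id1 and Id2 were also lost without the pool as a replicate block (edgeR adjusted p = 0.137 and 0.242), and both were kept under the other 14 of 16 alternatives. Against cells with hormones alone, Id1 was at -3.18 and Id2 at -2.35, and without cells holding a read of the leukocyte gene Ptprc at -3.13 and -2.22, all called. The median depth of Gip cells was 31018.5, 118908 and 948000 reads, and after thinning the cells to equal depth Id1 was at -3.23, Id2 at -2.16 and Id3 at -1.52, with Id3 then also past the test (edgeR adjusted p = 0.0470). Early response genes of dissociation summed to a mean of 763, 2331 and 2577 CPM in Gip cells and 2989, 4690 and 5247 CPM in Pzp cells. In Gcg cells these genes summed to a mean of 2628, 1350 and 3447 CPM, below the Gip mean in SLX-11179 alone. Of these 12 genes, 2 had a log2 fold change above 0 in Gip cells (median -0.41) and none was called. Among markers of other cell types, 2 of 4 goblet and Paneth genes tested were called lower in Gip cells (Tff3 and Fcgbp), with 1 of 7 enterocyte genes (Fabp2), 3 of 3 plasma cell genes and 2 of 6 leukocyte genes, while 0 of 8 enteroendocrine genes were called (5 at an unadjusted p under 0.05, 2 higher and 3 lower). The part of these genes in the result was not tested.

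In Pzp cells, Id1, Id2 and Id3 stood at 1.97, 1.88 and 1.90 times the level of all other cells in the fit, and none passed the test. Called genes were 0.553% (higher) and 0.821% (lower) of 12302 tested, and 0 of 7 members. The median log2 fold change of the members was 0.49, against -0.10 over all genes tested.

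Id1 stood at 103, 107 and 220 CPM in Pzp cells and at 59.1, 55.1 and 98.9 CPM in other cells, with the lowest Pzp sum above the highest of the others. The log2 fold change was 0.98 (SE 0.21, edgeR adjusted p = 0.0942). Id2 stood at 468, 596 and 702 CPM against 255, 279 and 414 CPM, without overlap, at a log2 fold change of 0.91 (SE 0.19, edgeR adjusted p = 0.0822). Id3 stood at 273, 407 and 337 CPM against 199.8, 158 and 173 CPM, also without overlap, at 0.93 (SE 0.23, edgeR adjusted p = 0.148). All were higher in 3 of 3 pools, and the share of all genes tested without overlap was not counted.

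Whether the Id genes were called in Pzp cells depended on the tool, the filter on low counts, the scaling and, for Id1, thinning of the cells. DESeq2 called all 3 (adjusted p = 0.00621, 0.000449 and 0.00754), as did edgeR without a filter on low counts (0.0396, 0.00404 and 0.0131) and edgeR without TMM scaling (0.0198, 0.0284 and 0.0295). With cells thinned to 20000 reads, edgeR called Id1 alone of the 3, at a log2 fold change of 1.20 (adjusted p = 0.00856). Scaling without TMM moved the median of all genes from -0.10 to 0.38, and with it the levels of the Id genes. Against cells with hormones alone, the log2 fold changes were 0.75, 0.64 and 0.64, and without cells holding a Ptprc read 0.65, 0.95 and 0.78, none of them called. Leukocyte genes (5 of 5 tested) and plasma cell genes (3 of 3 tested) were called lower in Pzp cells, which are compared here with a group that holds the hormone-poor cells. Of the goblet and Paneth genes 1 of 4 tested was called higher (Tff3), and 2 of 7 enterocyte genes (Apoa1 and Rbp2) and 3 of 8 enteroendocrine genes (Chga, Chgb and Isl1) were called lower. All 12 early response genes of dissociation had a log2 fold change above 0 (median 0.54, none called). The part of all these genes in the Id levels was not tested.

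The log2 fold changes of the other members in Pzp cells were smaller than those of the Id genes. Bmpr1a had a log2 fold change of 0.27, Bmpr2 of 0.49, Smad6 of 0.31 and Smad7 of 0.02, at edgeR adjusted p of 0.814, 0.779, 0.952 and 0.995. Their SE were 0.27, 0.44, 0.87 and 0.56.

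**Figure D2:**
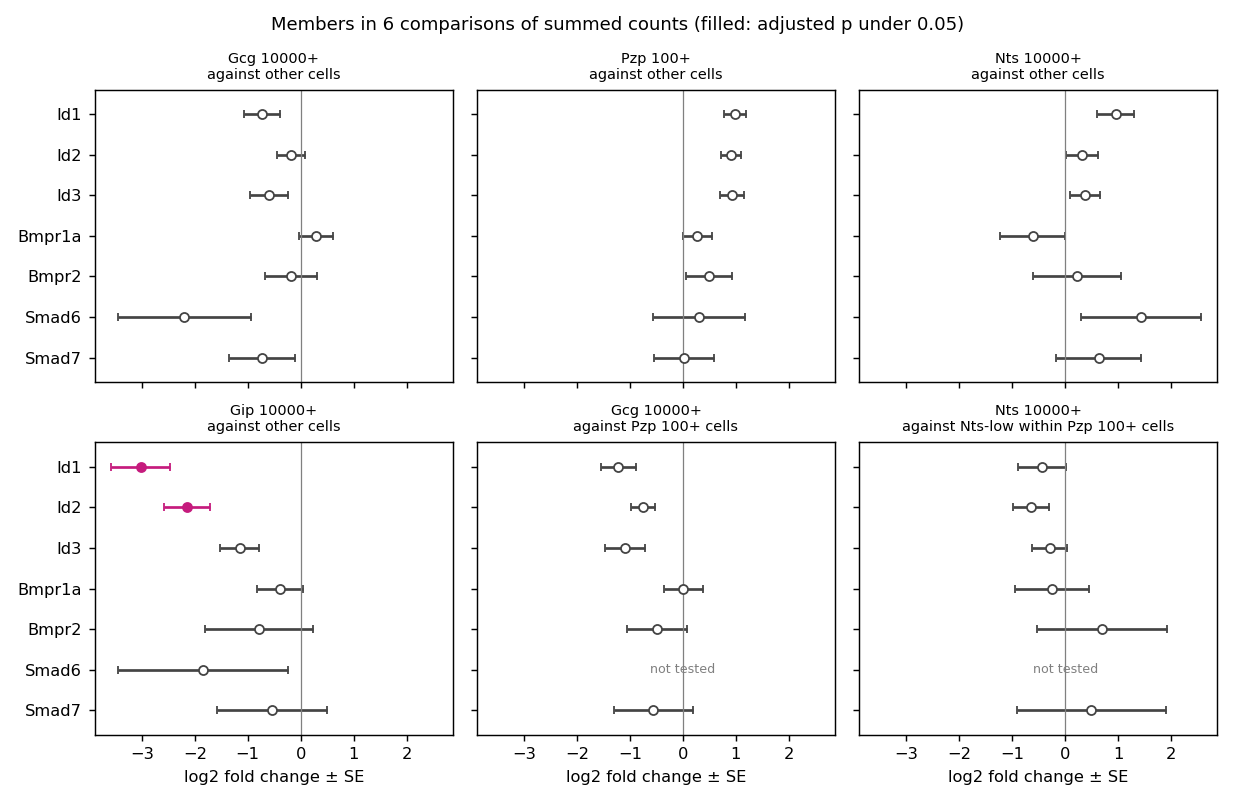
Log2 fold change of each member with its SE (bars) in 6 comparisons of sums per pool and class, from edgeR. Filled points are called at an adjusted p under 0.05, which holds for Id1 (-3.02) and Id2 (-2.15) in Gip cells.

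In Gcg cells, no member passed the test, with 0.1% of 11978 genes called higher and 0.317% lower. Id1 stood at 74.97, 30.2 and 76.2 CPM against 63.1, 75.1 and 161 CPM in other cells, higher in one shallow pool and lower in the other pools. Id2 stood at 365, 282 and 349 CPM against 258, 359 and 552 CPM, and Id3 at 251, 83.6 and 160.1 CPM against 188, 249 and 247 CPM. Both showed the same split between pools. Their log2 fold changes were -0.73, -0.18 and -0.59 (edgeR adjusted p = 0.598, 0.901 and 0.716). Bmpr1a, Bmpr2, Smad6 and Smad7 were at 0.28, -0.18, -2.20 and -0.73, with the value of Smad6 carrying an SE of 1.26. Smad7 stood at 4.998, 8.13 and 6.94 CPM in Gcg cells against 10.3, 8.38 and 14.6 CPM, without overlap (edgeR adjusted p = 0.817). Of the marker genes, 3 of 3 plasma cell, 1 of 5 leukocyte and 2 of 4 goblet and Paneth genes were called lower in Gcg cells and 1 of 8 enteroendocrine genes higher, and 2 of 12 early response genes were above 0 (median -0.28). Their part was not tested. Over the members the median was -0.59, against -0.07 over all genes tested.

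Set against Pzp cells alone, Gcg cells had lower sums of Id1, Id2 and Id3 in 3 of 3 pools, again without a call. Here 0.504% of 9119 genes were called higher in Gcg cells and 0.515% lower. Id1 stood at 87.3, 36.5 and 87.5 CPM in Gcg cells and at 116, 122 and 242 CPM in Pzp cells. Id2 stood at 428, 341 and 400.1 CPM against 529, 677 and 773 CPM, and Id3 at 306, 101 and 184 CPM against 323, 463 and 371 CPM. None of these pairs of groups overlapped, but the share of all genes tested without overlap was not counted. The log2 fold changes were -1.22 (SE 0.33), -0.75 (SE 0.23) and -1.09 (SE 0.37), at edgeR adjusted p of 0.199, 0.285 and 0.375. DESeq2 called all 3 (adjusted p = 0.0196, 0.0452 and 0.0411), and edgeR without a filter on low counts called Id3, at -1.05 (adjusted p = 0.0242). With every cell thinned to 20000 reads, edgeR called Id1 in Gcg cells, at -1.90 against Pzp cells (adjusted p = 0.000355) and at -1.36 against all other cells (0.0399). Beside these values, 0 of 11 early response genes of dissociation had a log2 fold change above 0 (median -0.58, none called). Of the marker genes, 2 of 3 goblet and Paneth genes (Tff3 and Fcgbp) were called lower in Gcg cells, and 3 of 8 enteroendocrine genes (Chga, Chgb and Isl1) and 1 of 6 enterocyte genes (Rbp2) higher. Their part was not tested. Bmpr1a did not differ detectably between these classes, with a log2 fold change of 0.00 (SE 0.37).

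In Nts cells the levels of the Id genes varied widely among pools. Called genes were 0.099% (higher) and 0.206% (lower) of 12126 tested and included no member. Id1 stood at 67.2, 116 and 372 CPM in Nts cells against 64.8, 53.7 and 123 CPM, higher in 3 of 3 pools, at a log2 fold change of 0.95 (SE 0.35, edgeR adjusted p = 0.493). Id2 stood at 212, 513 and 768 CPM against 299, 305 and 489 CPM, and Id3 at 175, 309 and 346 CPM against 209, 191 and 220.0 CPM. The pool with 7 Nts cells was the one where Id2 and Id3 were lower, and there Bmpr1a was also low, at 6.56 CPM against 61.7 CPM. In the other pools Bmpr1a stood at 42.8 and 146 CPM against 63.3 and 76.5 CPM, and its log2 fold change of -0.62 turned to 0.20 when SLX-11175 was left out. The inhibitors were higher in Nts cells in 3 of 3 pools, with Smad6 at 3.28, 7.38 and 14.9 CPM against 2.26, 1.49 and 6.04 CPM and Smad7 at 14.8, 10.3 and 17.6 CPM against 7.07, 7.94 and 12.4 CPM. Both groups overlapped, and the log2 fold changes of 1.43 (SE 1.14) and 0.64 (SE 0.80) did not pass the test. All 12 early response genes of dissociation had a log2 fold change above 0 in Nts cells (median 0.51, none called), and 3 of 3 plasma cell genes and 1 of 5 leukocyte genes were called lower. Their part was not tested.

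Pzp cells with and without high Nts could be compared over 9 Nts cells in all. There 0.0142% of 7053 genes were called in either direction, 1 gene each way, and every member tested had an edgeR adjusted p of 0.999. The log2 fold changes of Id1, Id2 and Id3 were -0.44, -0.65 and -0.30.

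The Id genes followed secretin more closely than proglucagon or neurotensin. Correlations are Spearman's over the 75, 87 and 88 cells of a pool on log2(CPM + 1). Cells of a pool are not replicates, so the correlations are given as descriptions. Id2 correlated with Sct (secretin) at 0.71, 0.73 and 0.55, Id3 at 0.68, 0.66 and 0.56 and Id1 at 0.47, 0.45 and 0.65. Bmpr1a correlated with Sct at 0.43, 0.50 and 0.48, while Bmpr2, Smad6 and Smad7 stayed between 0.09 and 0.38.

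With Gcg, the pools did not give one picture. Id2 correlated at 0.57, 0.32 and -0.08, Id3 at 0.36, 0.06 and -0.12 and Id1 at 0.21, -0.05 and -0.07, and in each case the deep pool was below 0. With Nts, Id2 was at 0.25, 0.35 and 0.07, Id3 at 0.33, 0.36 and 0.21 and Id1 at 0.10, 0.33 and 0.30. With Tph1, the enzyme of serotonin synthesis, Id1 was at 0.36, 0.48 and 0.32, Id2 at 0.25, 0.25 and 0.24 and Id3 at 0.29, 0.36 and 0.29, and all were above 0 in every pool.

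**Figure D3:**
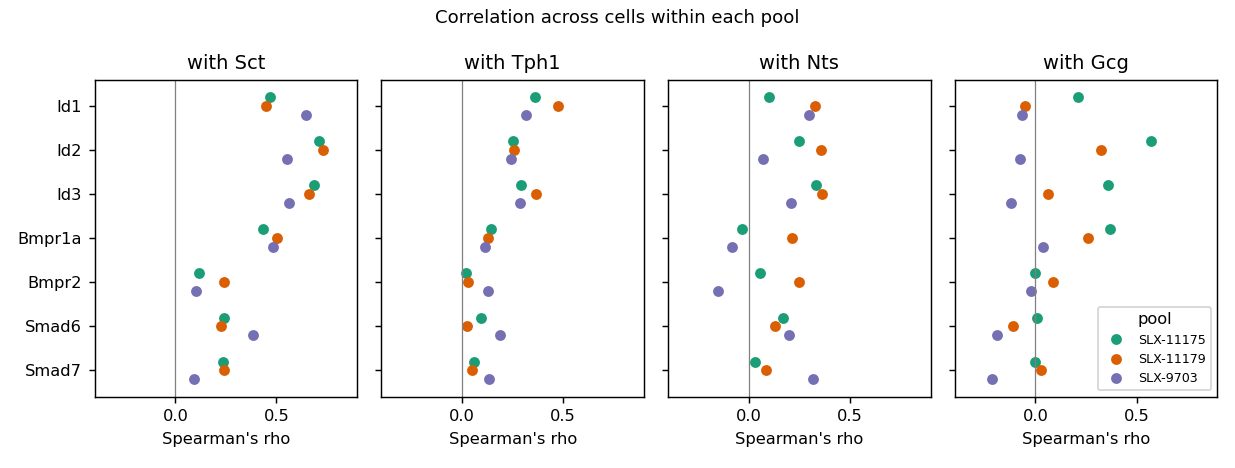
Spearman correlation across cells of each member with Sct, Tph1, Nts and Gcg, one point per pool (75, 87 and 88 cells). Id2 and Id3 with Sct lie between 0.55 and 0.73, and with Gcg the pools spread from -0.12 to 0.57.

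Within single classes, the correlations of Id1, Id2 and Id3 with Sct were above 0 in every pool for Gcg cells, and for Pzp cells those of Id1 alone were. In the 19, 19 and 20 Gcg cells, the correlation of Sct with Id1 was 0.39, 0.55 and 0.68, with Id2 0.29, 0.71 and 0.58 and with Id3 0.33, 0.68 and 0.47. In the 15, 22 and 28 Pzp cells, where Sct was high, it was 0.26, 0.66 and 0.18 for Id1, 0.30, 0.36 and -0.08 for Id2 and 0.55, 0.49 and -0.11 for Id3. The deep pool, with the most Pzp cells, did not show the relation for Id2 and Id3. The median Sct level was 605, 1660 and 668 CPM in Gip cells and 34801, 12914 and 36549 CPM in Pzp cells. These classes stood at either end of the Id2 order. Median Sct was 9858, 1845 and 3667 CPM in Gcg cells and 23820, 21460 and 46700 CPM in Nts cells. In SLX-11179 and SLX-9703, Nts cells had more Sct than Pzp cells but a lower median Id2. In SLX-11175, Nts cells had more Sct than Gcg cells but a lower median Id2. Over all alternatives, leaving out a pool included, the mean correlation over pools lay between 0.59 and 0.72 for Id2 with Sct and between 0.45 and 0.56 for Id1 with Sct. Id2 correlated with the reads per cell at 0.16, 0.22 and 0.13, with the number of genes read in a cell at 0.49, 0.43 and 0.27, with the summed hormone transcripts at 0.58, 0.44 and 0.07 and with the summed early response genes of dissociation at 0.45, 0.55 and 0.32. The part of these in the relation with Sct was not tested.

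**Figure D4:**
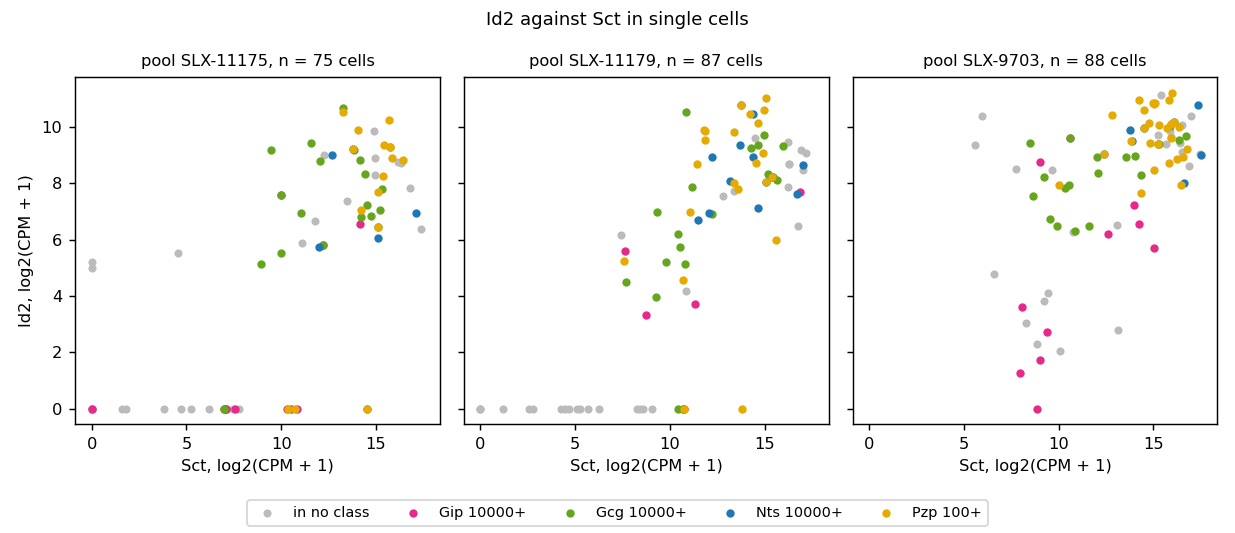
Id2 against Sct in single cells (log2 of CPM plus a pseudocount of 1) in each pool, coloured by class. Cells of 2 classes carry one of their colours. Most Gip cells sit toward the lower left (median Sct 605, 1660 and 668 CPM) and most Pzp cells at the upper right (34801, 12914 and 36549 CPM).

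The 3 Id genes were read together. Id2 and Id3 correlated at 0.71, 0.68 and 0.68, Id1 and Id2 at 0.67, 0.56 and 0.61, and Id1 and Id3 at 0.58, 0.57 and 0.77. Among 4166 genes with a read in at least 25% of cells in each pool, the gene most like Id2 by mean correlation over pools was Id3 (0.69), followed by Sct (0.66), Tm4sf4 (0.65), Myl7 (0.63) and Neurod1 (0.62), the last a basic helix-loop-helix factor of enteroendocrine cells. The genes most like Id1 were Id3 (0.64), Id2 (0.61), Tbx3 (0.55), Sct (0.52) and Rflna (0.52), and those most like Id3 were Id2 (0.69), Id1 (0.64), Sct (0.64), Myl7 (0.61) and Plac8 (0.59). Gip stood near the other end, at -0.14 with Id1, -0.16 with Id2 and -0.09 with Id3. Id2 and the receptor gene Bmpr1a correlated at 0.44, 0.57 and 0.27.

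The lists of other pathway genes gave 1 call in 6 comparisons, in Gip cells, where 0.397% of all genes tested were called higher, so that the count says nothing particular about the lists. Of the BMP ligand list, 4 of 16 genes could be tested in Gip cells, and Bmp1 rose there, to 164 ± 54.4 CPM against 23.2 ± 9.69 CPM in other cells (mean and SD, n = 3 pools), a log2 fold change of 2.83 (SE 0.47, edgeR adjusted p = 0.0120). Despite its name, Bmp1 is a metalloprotease that cleaves procollagens and not a ligand of the family. Of the other receptors 6 of 9 were tested in Gip cells, of the transducing SMADs 6 of 6, of the other intracellular inhibitors 9 of 9, of the extracellular antagonists 3 of 13 and of other target genes 4 of 8, and none passed. Of the intracellular inhibitors tested in Gip cells, 3 of 9 had a log2 fold change above 0 (median -0.24), and of the transducing SMADs 3 of 6 (median -0.65), beside -0.34 over all genes. The other receptors went the other way, with 5 of 6 above 0 in Gip cells (median 0.18). They were above 0 for 5 of 6 in Gcg cells (median 0.60), 2 of 6 in Nts cells (-0.58) and 2 of 6 in Pzp cells (-0.24). In Gip cells, 2 of 4 genes of the ligand list and 2 of 3 extracellular antagonists were above 0. Of the other target genes, 0 of 4 tested were above 0 in Gip cells, 0 of 4 in Gcg, 2 of 4 in Nts and 3 of 4 in Pzp cells. At an unadjusted p under 0.05 (edgeR), 1 was lower in Gip cells and 2 were lower in Gcg cells. In Pzp cells their median was 1.18, beside -0.10 over all genes, and 2 were higher at an unadjusted p under 0.05. In that comparison 1277 of all 12302 genes tested were at an unadjusted p under 0.05. Among the other target genes, Klf4 stood at 3.68 ± 4.80 CPM in Gip cells against 17.96 ± 12.5 CPM (edgeR adjusted p = 0.539). Atoh8 had no reads in Gip cells, so no median of these target genes is given for Gip cells. Bambi, a pseudoreceptor that blunts the signal and one of the inhibitors with the highest levels, stood at 136 ± 13.1 CPM in Gip cells against 48.7 ± 13.8 CPM (edgeR adjusted p = 0.146). Smad1, a transducer, stood at 17.6 ± 7.44 CPM against 49.5 ± 10.99 CPM (0.320), and both kept their direction in 3 of 3 pools. Neither passed the test. Bambi and Smad1 do not stand for their lists, where 3 of 9 inhibitors and 3 of 6 transducers were above 0. In Pzp cells the transducer Smad9, named after its values were seen, stood at 22.3 ± 11.9 CPM against 2.81 ± 1.81 CPM, at a log2 fold change of 3.00 (edgeR adjusted p = 0.0732). Of the basic helix-loop-helix genes, whose products Id proteins can bind, 9 of 13 were tested in Gip cells and none passed, with Neurod1 at a log2 fold change of -1.30 (edgeR adjusted p = 0.174).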

How the data were processed

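The authors aligned Smart-seq2 reads to mm10 with GSNAP (2015-09-29) and counted them per gene with HTSeq (0.5.3p3), per the labels, and deposited raw counts. The annotation release and strand setting are not given in the sources used here. Of all counts, 77.6% were in 5 lines that name no gene and were left out, and 4 columns of no sample were not used. No 2 cells had identical counts. Class totals within a pool (3 cells or more each) were tested with edgeR 4.0.16 (TMM, filterByExpr, pool as block, threshold 0.05), after a test on simulated data. Both sums of a comparison come from cells of the same pool, which is why the pool is the block. Correlations used a pseudocount of 1. All members were named, with list genes past the threshold where tested and the 5 genes most like each Id gene. Some list genes that did not pass, among them Klf4 and Atoh8, were also named. Some of those that did not pass were picked for high levels, and Smad9 after its values were seen. Alternatives were DESeq2 1.42.0, no filter, no block, leaving out each pool, 50000 reads or 10% mitochondrial reads as limits, no hormone genes, hormone-positive cells, thinning and halved thresholds. Leaving out TMM or cells with Ptprc, and other references for Gip cells, were chosen after seeing the data. The members and lists were chosen with earlier results of these data known. The cells just inside and just outside each class limit held 11122 and 9545 CPM of Gcg, 104 and 92.2 of Pzp, 11439 and 9259 of Nts, and 10823 and 9169 of Gip. Depth ranged over cells from 21345 to 504833, 20121 to 779919 and 319966 to 4368674 reads in the 3 pools. Limits on shares cover counting error only.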

Additional observations from a re-analysis of the deposited data

How the results depend on the processing

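Id1 and Id2 were called lower in Gip cells under 14 of 16 alternatives each, over log2 fold changes of -3.52 to -2.48 and -2.57 to -1.76, and Id3 under 1 of 16. Bmpr1a, Bmpr2, Smad6 and Smad7 were called under none. The pools are 3, and in the shallow ones genes at the level of Smad6 rest on few reads. In Pzp cells, Id1, Id2 and Id3 were called under 4, 3 and 3 of 14 alternatives. The numbers of genes called also moved between settings, and the cause was not tested. In the order Gcg, Pzp, Nts and Gip against other cells, Gcg against Pzp and Nts within Pzp, edgeR called 50, 169, 37, 113, 93 and 2 genes. DESeq2 called 346, 581, 248, 458, 315 and 12, and edgeR with no filter on low counts 540, 863, 255, 414, 259 and 8. With no replicate block, counts moved to 17, 108, 16 and 70 in the first 4 and to 0 in the last (252 genes at an unadjusted p under 0.05, edgeR). Thinning gave 125 (Gcg), 63 (Nts) and 182 (Gcg against Pzp), halved thresholds 28 (Gcg) and 1 (Nts within Pzp), hormone-positive cells 96 (Pzp) and 10 (Nts), and at most 10% mitochondrial reads 24 (Nts). For Nts within Pzp, 50000 reads gave 1 and leaving out hormone genes 0 (233 genes at an unadjusted p under 0.05, edgeR). Without cells holding Ptprc the count was 19 (Gcg) and 15 (Nts), and for Gip it was 34 against Gcg cells and 186 against Pzp cells. Without TMM it was 300 (Pzp, 197 higher and 103 lower, from 68 and 101), 20 (Nts, 4 and 16, from 12 and 25) and 186 (Gip, 54 and 132, from 48 and 65), and Gcg against Pzp split into 30 and 56, from 46 and 47. Leaving out TMM moved the median of all genes from -0.07 to 0.16 (Gcg), from -0.34 to -0.54 (Gip), from -0.22 to -0.06 (Nts) and from 0.00 to -0.20 (Gcg against Pzp). Leaving out 1 pool gave 51 to 128 (Gcg, 128 without SLX-11179 and 79 without SLX-9703), 89 to 403 (Pzp, 89 without SLX-11175 and 403 without SLX-11179), 52 to 92 (Nts, 66 without SLX-11179 and 92 without SLX-9703), 112 to 210 (Gip, 194 without SLX-11175 and 210 without SLX-11179), 53 to 83 (Gcg against Pzp, 53 without SLX-11175) and 2 to 6 (Nts within Pzp, 6 without SLX-11175 or SLX-11179). Changes of sign were found for values that were never called. Id2 in Gcg cells was at 0.0757 without TMM, and Bmpr2 there at 0.0563. Bmpr1a in Pzp cells was at -0.0559 with 50000 reads, -0.0071 with hormone-positive cells and -0.0880 without Ptprc, and Smad7 there at -0.0221 with no filter, -0.0406 with 10% mitochondrial reads, -0.1015 with hormone-positive cells, -0.0318 with halved thresholds and -0.0511 without Ptprc. In Nts cells, thinning gave Id2 -0.0309, Id3 -0.0643 and Bmpr2 -0.2744, Bmpr2 was at -0.0390 with halved thresholds and -0.2216 without Ptprc, and Bmpr1a at 0.0096 with no replicate block. Between Gcg and Pzp cells, Bmpr1a was at -0.1898 without TMM, -0.0069 without hormone genes and -0.0877 with thinning, and within Pzp cells at 0.3016 with no replicate block. With 1 pool left out, Id2 in Gcg cells ranged from -0.4993 to 0.0610 (the latter without SLX-9703) and Bmpr1a there from -0.0868 (without SLX-11179) to 0.5990. Smad7 in Pzp cells ranged from -0.1992 to 0.2589. In Nts cells, Bmpr1a ranged from -1.6152 to 0.2042 (without SLX-11175) and Bmpr2 from -0.3990 (without SLX-11179) to 1.0028. Bmpr1a ranged from -0.4477 (without SLX-11179) to 0.2626 between Gcg and Pzp cells and from -1.2933 to 0.5735 (without SLX-11175) within Pzp cells. Of 280 correlations under alternatives, 22 moved by more than 1 SD over pools.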

Other observations

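Cells with little hormone gave the Id genes a different background. Of the 31 cells with under 1000 CPM of hormone transcripts, Id2 was read in 3 of 15, 0 of 13 and 3 of 3, where 0 of 13 allows a share of up to 23.1%. After thinning to 20000 reads, none of Id1, Id2 and Id3 was read in 10 of 15, 10 of 13 and 0 of 3 of these cells, and all 3 in 0 of 31. The cells without any of them thus came from the shallow pools alone. In the 53 cells with hormones but in no class, all 3 Id genes were read in 5 of 13, 2 of 18 and 12 of 22 after thinning, and none of them in 2, 4 and 2.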
